A study of Mus musculus with 14 samples.

Results

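The genes described here are 7 CXC chemokines, Cxcl1, Cxcl2, Cxcl3, Cxcl5, Cxcl12, Cxcl14 and Cxcl16, and the related Cx3cl1. They were taken by symbol from both deposited tables of normalised counts, which list 43472 genes, and all 8 were present in each. Chemokines are small secreted proteins that direct cell movement through G-protein-coupled receptors. Cxcl1, Cxcl2, Cxcl3 and Cxcl5 bind Cxcr2 and draw neutrophils into injured tissue; they are classic early targets of NF-kB in fibroblasts and epithelium, and are called the inducible members here. Cxcl12, the ligand of Cxcr4 and Ackr3, and Cxcl14 are made by resting stroma, while Cxcl16, the ligand of Cxcr6, and Cx3cl1 (fractalkine), the ligand of Cx3cr1, are made as membrane-anchored proteins that proteases such as Adam10 and Adam17 release.

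RNA was sequenced from 14 libraries of primary fibroblasts grown from tail tips of C57BL/6 mice, and the labels name no transgene or deletion in any group. The cultures were wounded by a scratch. AMG-treated cultures received a soluble autologous micrograft extract, made by disrupting and filtering mouse skin and diluting the filtrate in growth medium, and Untreated cultures did not. Replicate 1 has 1 library per group at 1, 5, 12 and 24 h, and replicates 2, 3 and 4 add 3 libraries per group at 5 h. The labels call the 5 h replicates biological but do not say what a replicate number shares, nor give the age of the mice, so p-values measure the spread between these samples. Values are normalised counts, that is reads per gene divided by a factor for library depth, scaled separately in the table of replicate 1 and in that of replicates 2 to 4, so that levels are compared only within a table.

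The libraries held 12545537 to 34696529 reads in genes, and 3 reads, taken as the floor of detection, correspond to normalised counts of 1.62 to 5.22. All 10 fibroblast markers checked were present in every group, and their summed level was lower with AMG in 3 of 3 same-numbered pairs of replicates 2 to 4, at 582477, 447915 and 626083 without and 350892, 370025 and 453679 with AMG. Col1a1 was the highest gene of this sum, at 265494, 171810 and 278572 without and 139523, 130390 and 186580 with AMG. Not every marker was lower in each pair. Thy1 went from 1339 to 1723, 14712 to 14412 and 1068 to 1473 in replicates 2, 3 and 4. The part of this sum in the results was not tested. The keratin genes Krt5, Krt14 and Krt1 were at 0 in the 6 libraries of replicates 2 to 4, as were the neutrophil genes S100a9, Elane and Retnlg. The summed level of the leukocyte markers, 9 of 10 listed being in the table, ranged from 238 to 1457 in Untreated and from 512 to 1791 in AMG-treated libraries, with Cd3e at 0 and Cd14, the lipopolysaccharide co-receptor, at means of 133 and 504. This sum was higher with AMG in 3 of 3 same-numbered pairs, but without Cd14 it went from 266 to 215, 164 to 205 and 1282 to 1151 in replicates 2, 3 and 4, lower in 2 of the 3. The summed level of 7 neutrophil markers was higher with AMG in each pair, from 3.30 to 5.09, 20.9 to 50.01 and 3.79 to 28.2. Its highest genes were S100a8, at means of 6.75 without and 20.4 with AMG, and Ly6g, at 2.58 and 6.30. That of 8 keratinocyte markers was lower in each pair, from 312 to 149, 156 to 90.2 and 242 to 106. Dsp, at means of 180 and 73.6, and Krt10, at 29.1 and 39.0, were its highest genes. That of 6 endothelial markers went from 23.1 to 8.91, 239.5 to 116 and 16.8 to 20.3. The part of these differences in the results was not tested.

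Cxcl1, Cxcl2, Cxcl3 and Cxcl5 lie within 147 kb of mouse chromosome 5 on the plus strand in the GRCm38 (mm10) build, a span that holds 7 protein-coding genes, all of them CXC chemokines. Cxcl5 (ENSMUSG00000029371.7) occupies chr5:90759360-90761624, Cxcl3 (ENSMUSG00000029379.10) chr5:90786103-90789600, Cxcl1 (ENSMUSG00000029380.11) chr5:90891241-90893115 and Cxcl2 (ENSMUSG00000058427.10) chr5:90903871-90905938. The other members lie on other chromosomes. Cxcl12 (ENSMUSG00000061353.11) is at chr6:117168535-117181367, Cxcl14 (ENSMUSG00000021508.11) at chr13:56288643-56296551 (minus strand), Cxcl16 (ENSMUSG00000018920.11) at chr11:70453983-70459984 (minus strand) and Cx3cl1 (ENSMUSG00000031778.13) at chr8:94772009-94782427. All 8 are protein coding, and their reads were counted over exons. Cxcl16 overlaps Zmynd15 on the opposite strand, and whether counting used strand is not given in the sources used here, so reads of this pair may not be told apart. Zmynd15 itself was at 0 in the Untreated and at 9.04 to 20.4 normalised counts in the AMG-treated libraries of replicates 2 to 4.

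Promoters from RefSeq (GRCm38.p6, 250 bases before to 50 after the start) were found for 6 of the 8 members, all but Cxcl5 and Cxcl16. Both strands were searched for a strict kappaB pattern (GGGNN followed directly by TTTCC) and for the kappaB consensus, which overlaps it in part, both describing sites that NF-kB dimers can bind, for TGANTCA, the site of AP-1, and for TATAAA. The 10-base sequence GGGAATTTCC, which matches both NF-kB patterns, occurred in Cxcl1 from 71 to 62, in Cxcl2 from 97 to 88 and in Cxcl3 from 73 to 64 bases before the start. Cxcl2 held a second strict match, GGGCTTTTCC, at 78 to 69, and Cxcl1 one on the minus strand, GGGTGTTTCC, at 89 to 80. No match to either NF-kB pattern lay in the windows of Cxcl12, Cxcl14 or Cx3cl1, and none of the 6 held TGANTCA. Among 32851 promoters of the same length, 1.63% held the strict pattern, 4.50% the consensus and 7.81% TGANTCA. At that last share, its absence from these few promoters says little about them. TATAAA was found in Cxcl3 at 30 to 25 and in Cx3cl1 at 6 to 1 bases before the start, and in 13.6% of all promoters. The 120 bases from 150 to 31 before the start of the 3 inducible members with an entry, and of Cxcl12 for contrast, follow from 5′ to 3′ with matches to either NF-kB pattern on either strand in capitals.
Cxcl1 promoter, chr5:90891095-90891214: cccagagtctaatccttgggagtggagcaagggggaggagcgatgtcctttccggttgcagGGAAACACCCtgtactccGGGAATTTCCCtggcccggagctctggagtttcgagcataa
Cxcl2 promoter, chr5:90903749-90903868: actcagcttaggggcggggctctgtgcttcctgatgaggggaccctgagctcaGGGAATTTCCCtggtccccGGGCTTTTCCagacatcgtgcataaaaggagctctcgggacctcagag
Cxcl3 promoter, chr5:90785951-90786070: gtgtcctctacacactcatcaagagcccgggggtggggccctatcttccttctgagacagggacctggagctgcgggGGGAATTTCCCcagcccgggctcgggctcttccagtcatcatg
Cxcl12 promoter, chr6:117168385-117168504: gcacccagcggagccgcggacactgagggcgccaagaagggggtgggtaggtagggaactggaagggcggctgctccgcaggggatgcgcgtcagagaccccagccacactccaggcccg
The shared element in Cxcl1, Cxcl2 and Cxcl3 extends by 1 more C in each, because the minus strand matches the consensus 1 base further on. A match describes these letters and not a bound site.

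Treatment for 5 h was compared with no treatment in replicates 2 to 4 to ask which of these signals wounded fibroblasts change when they meet the extract. All 4 inducible members and Cxcl16 were higher with AMG, by 4.56 to 9.13 on the log2 scale. A gene is called here when limma, fitted to log2(normalised count + 1) over 13096 genes, puts it under 0.05 after Benjamini-Hochberg adjustment and its log2 fold change lies beyond 1 in either direction. By this rule 5 of the 8 members were called higher, against 0.855% of all genes, and none of the 8 lower, against 0.244%. By log2 fold change, Cxcl2 ranked 2, Cxcl1 4, Cxcl3 15, Cxcl5 19 and Cxcl16 22 of the 13096 genes. The median log2 fold change was 6.35 over the 4 inducible members and 0.85 over the other 4, beside -0.02 over all genes tested. In bulk RNA of this kind, a change in the number of cells that make a transcript and a change of transcript per cell cannot be told apart.

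Cxcl1, a major neutrophil attractant of mouse skin, stood at 50.6, 59.9 and 31.4 normalised counts in Untreated replicates 2, 3 and 4, and at 9888, 4379 and 16532 in the AMG-treated ones. The groups were far apart, with every treated library above every untreated one, a separation shown by 15.1% of all genes. The means were 47.3 ± 14.5 and 10267 ± 6085 (SD, n = 3), and the log2 fold change was 7.58 (SE 0.49, 95% interval 6.43 to 8.73, limma adjusted p = 0.00567).

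Cxcl2, which acts on the same receptor, had 26.4, 5.57 and 11.4 normalised counts in the Untreated libraries and reached 16533, 1631 and 14500 with AMG. In Untreated replicate 3 it rested on 4 reads, close to the floor. The treated levels of replicates 2 and 4 were alike and that of replicate 3 stayed far below them, and the treated SD was large (10888 ± 8081, n = 3, against 14.4 ± 10.8). Its log2 fold change of 9.13 (SE 0.95, 95% interval 6.88 to 11.38, limma adjusted p = 0.0190) was still the largest of the 8.

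Cxcl3 had 290.4, 61.3 and 49.8 normalised counts without and 6587, 1123 and 5306 with AMG, in replicates 2, 3 and 4. Untreated replicate 2 was the high value of its group, yet all treated libraries lay above it, a separation shown by 15.1% of all genes. The log2 fold change of 5.13 (SE 0.87, 95% interval 3.07 to 7.18) passed only just, with a limma adjusted p of 0.0497, and 9 of 19 alternative settings put it past 0.05, among them edgeR on whole reads (adjusted p = 0.0705), within a range of 1.99e-05 to 0.226 over the 19.

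Cxcl5, which is also made by epithelium during inflammation, went from 1445, 658.6 and 534.4 normalised counts to 33006, 10633 and 29213. Per kb of exon it was the highest of the 8 genes in each of the 3 treated libraries. The means were 879 ± 494 and 24284 ± 11973 (SD, n = 3), with a log2 fold change of 4.76 (SE 0.52, 95% interval 3.52 to 6.01, limma adjusted p = 0.0190).

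Among the 4 other members, only Cxcl16 was called. Cxcl16, an anchored chemokine that also takes up oxidised lipid, had 31.9, 18.1 and 19.5 normalised counts without and 767.2, 242.7 and 908.1 with AMG. All treated libraries lay above the untreated ones, as for 15.1% of all genes. The log2 fold change of 4.56 (SE 0.52, 95% interval 3.32 to 5.81, limma adjusted p = 0.0190) was close to that of Cxcl5. In the 7 treated-untreated pairs of the series, all 4 inducible members had a larger log2 ratio than every other member in 5, and in the other 2 Cxcl16 was above the lowest of them.

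In replicates 2 to 4, Cx3cl1 differed from these in its steady level without treatment. It stood at 1063, 870.3 and 1095 normalised counts in Untreated and at 4082, 1794 and 7504 in AMG-treated libraries. Its treated values thus also lay above all untreated ones, as for 15.1% of all genes. The log2 fold change of 1.92 (SE 0.47, 95% interval 0.80 to 3.04) was not called without a block (limma adjusted p = 0.0959) and was called with the replicate number as a block (limma adjusted p = 0.000708, 95% interval 1.37 to 2.47). The same-numbered libraries deviated together from their group means, and with the block 4.05% of all genes were called higher and 4.28% lower. It was called as well by DESeq2 (adjusted p = 0.000125) and, in limma, without AMG-treated replicate 3 (log2 fold change 2.46, adjusted p = 0.00822), and the adjusted p ranged from 0.000125 to 0.289 over the 19 alternatives.

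Cxcl12, which holds stem cells and leukocytes in tissue through Cxcr4, was the member with a lower level in every pair. It had 1061, 4323 and 653.9 normalised counts without and 731.6, 2256 and 421.3 with AMG, and the groups overlapped widely with replicate 3 high in both. The log2 fold change was -0.70 (SE 0.83, 95% interval -2.67 to 1.26, limma adjusted p = 0.642), and it became 0.09 without Untreated replicate 3. With the replicate block the same difference had an SE of 0.11 and a limma adjusted p of 0.00170, short of the log2 limit of -1, and the 19 alternatives gave values from 0.00144 to 0.957. A lower value in all 3 pairs was found for 34.5% of all genes, and 19.3% passed 0.05 in this direction with the block.

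Cxcl14, a chemokine of resting skin, varied most between cultures. The Untreated libraries of replicates 2, 3 and 4 had 8502, 233.9 and 1095 normalised counts, a range of 36.3-fold, and the AMG-treated ones 8937, 175.4 and 862.9, in the same order. The groups overlapped entirely, and the log2 fold change of -0.23 (SE 1.69, 95% interval -4.24 to 3.79, limma adjusted p = 0.951) left changes of several-fold in either direction within the interval. Its sign turned without Untreated replicate 2 (1.13) or AMG-treated replicate 3 (1.10), and in edgeR and DESeq2 (both 0.03). With the block the 95% interval narrowed to -0.49 to 0.03 (limma adjusted p = 0.147, where the 19 alternatives gave values from 0.00927 to 0.996).

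**Figure D1:**
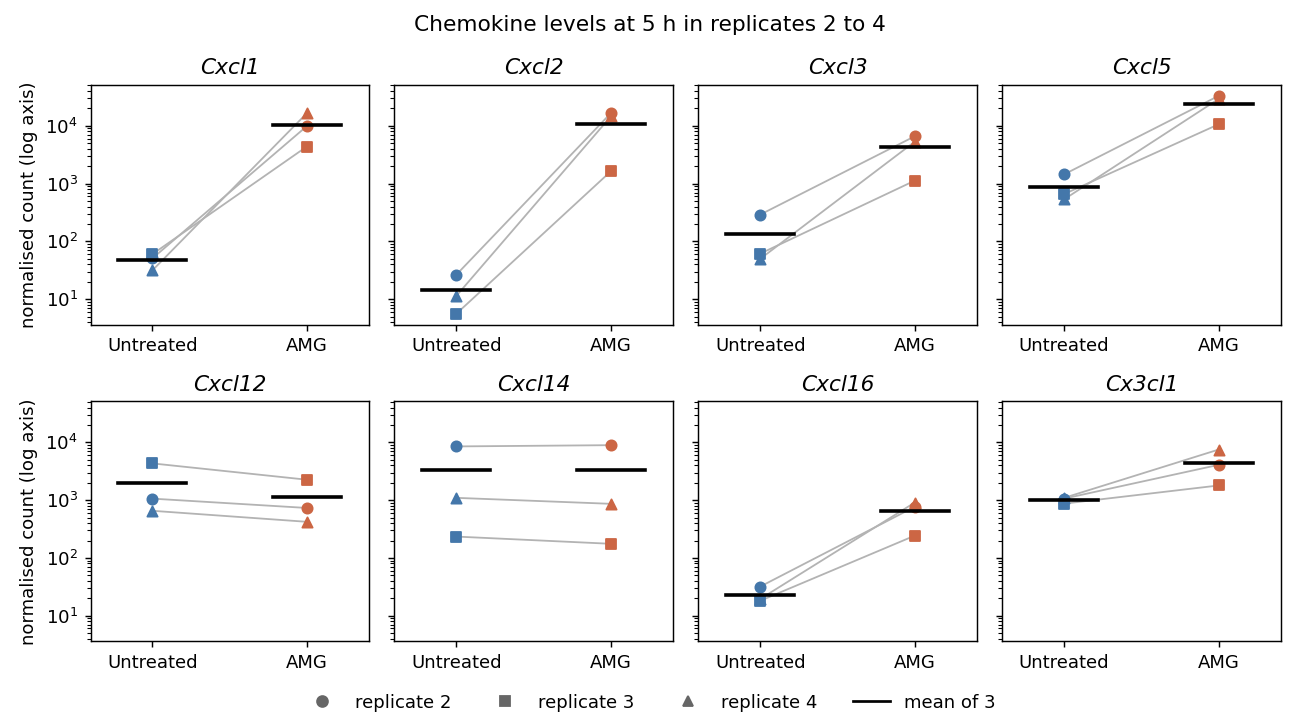
Normalised counts on a log axis of the 8 chemokines in Untreated (blue) and AMG-treated (orange) libraries at 5 h; the marker shape gives the replicate, grey lines join libraries of the same replicate number and black bars are means of 3. The lines of Cxcl1, Cxcl2, Cxcl3, Cxcl5 and Cxcl16 are steep, those of Cx3cl1 shallower, and those of Cxcl12 and Cxcl14 nearly flat but widely spaced, Cxcl14 running from 233.9 to 8502 without treatment.

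The calls leaned on single libraries, as they did over all genes. Without AMG-treated replicate 2 none of the 8 members was called (limma adjusted p = 0.0708 for Cxcl1, 0.123 for Cxcl2, Cxcl5 and Cxcl16, and 0.207 for Cxcl3), with 1893 of all genes then at an unadjusted p under 0.05. Without Untreated replicate 2, Untreated replicate 4 or AMG-treated replicate 4, Cxcl1 alone was called, and without Untreated replicate 3, Cxcl1 and Cxcl2. Without AMG-treated replicate 3 all 5 and Cx3cl1 were called. Over all genes, 112 were called higher with every library kept. That count was 1 without AMG-treated replicate 2, and 10, 9 and 6 without Untreated replicate 2, Untreated replicate 4 or AMG-treated replicate 4. It was 41 without Untreated replicate 3 and 447 without AMG-treated replicate 3. The log2 fold changes themselves stayed between 7.14 and 8.10 for Cxcl1, 8.54 and 10.21 for Cxcl2, 4.65 and 5.92 for Cxcl3, 4.46 and 5.28 for Cxcl5 and 4.21 and 5.16 for Cxcl16 when 1 library was left out. The adjusted p of Cxcl1 lay between 2.34e-56 (DESeq2) and 0.0708 in the 19 alternatives, and the highest was 0.123 for each of Cxcl2, Cxcl5 and Cxcl16.

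The replicates differed in the size of the response in the same way across 6 of the 8 members. In Cxcl1, Cxcl2, Cxcl3, Cxcl5, Cxcl16 and Cx3cl1 alike, the log2 ratio of the same-numbered libraries was smallest in replicate 3 and largest in replicate 4. For Cxcl2 the ratios in replicates 2, 3 and 4 were 9.24, 7.96 and 10.20, and for Cxcl5 4.51, 4.01 and 5.77. Replicate 1 at 5 h had a lower ratio than any of these pairs for 7 of the 8 members, 6.91 for Cxcl2 and 1.98 for Cxcl5 for example, the exception being Cx3cl1 at 1.52. For Cxcl12 and Cxcl14, at -1.26 and -0.97 in replicate 1, the lower ratio meant a level further below the untreated one. The 3 pairs of Cxcl12, at -0.54, -0.94 and -0.63, and of Cxcl14, at 0.07, -0.41 and -0.34, lay closer together than those of the inducible members. The share of all genes with the same order of replicates, or with the lowest ratio in replicate 1, was not counted. Whether these orders are particular to the members is therefore not known. Over all genes, too, leaving out AMG-treated replicate 3 raised the number called higher, from 112 to 447.

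**Figure D2:**
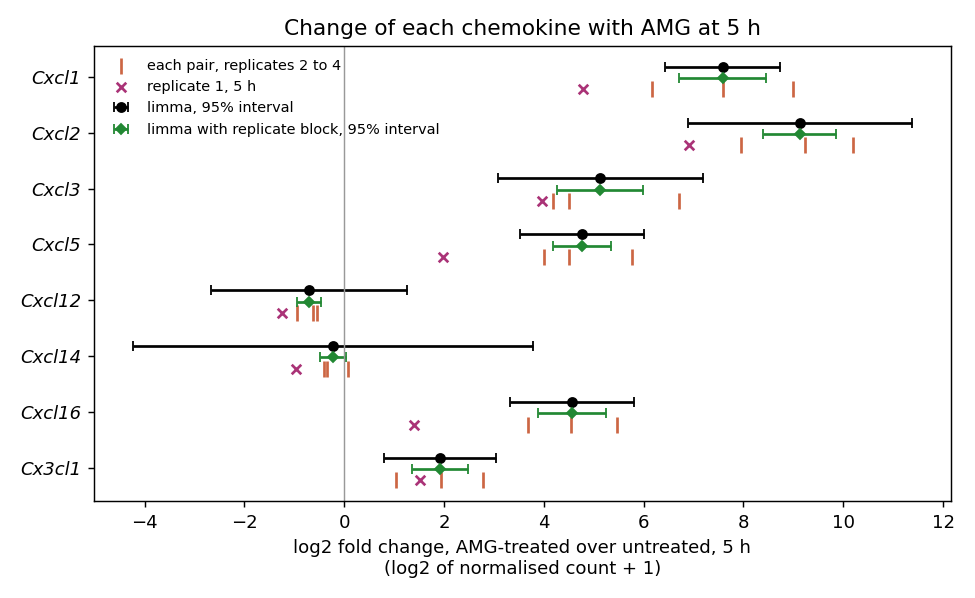
Log2 fold change of each chemokine at 5 h, AMG-treated over Untreated, with 95% intervals from limma without (black) and with (green) the replicate block; ticks are the 3 same-numbered pairs of replicates 2 to 4 and crosses the pair of replicate 1. The block narrows the interval of Cxcl14 from -4.24 to 3.79 down to -0.49 to 0.03, and the crosses lie left of all ticks for every gene but Cx3cl1.

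Levels of different genes were compared per kilobase of summed exon length. Without treatment Cxcl14 had the highest mean, 1794 ± 2488 normalised counts per kb (SD, n = 3), followed by Cxcl5 at 472 ± 265, Cx3cl1 at 257 ± 30.9, Cxcl12 at 246 ± 246, Cxcl3 at 38.3 ± 38.8, Cxcl1 at 25.2 ± 7.75, Cxcl16 at 7.67 ± 2.52 and Cxcl2 at 6.98 ± 5.20. Ranges of neighbours in this order overlapped except between Cxcl5 and Cx3cl1 and between Cxcl1 and Cxcl16. With AMG the order was led by Cxcl5 at 13035 ± 6427 normalised counts per kb, Cxcl1 at 5476 ± 3245 and Cxcl2 at 5265 ± 3908, and Cxcl12, at 139 ± 120, came last. Here only Cx3cl1 (1135 ± 731) and Cxcl16 (212 ± 116) were neighbours whose ranges over the 3 libraries did not overlap, although Cxcl5 came first within each library. Cxcl2 thus moved from the last place to the third while Cxcl12 moved from the fourth to the last.

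The inducible members together took 0.00334 to 0.0101% of all reads in the Untreated and 0.0990 to 0.355% in the AMG-treated libraries of replicates 2 to 4. Their mixture differed as well. Cxcl5 made up 79.7 to 85.3% of these reads without and 44.6 to 59.9% with AMG, with no overlap between the groups. Cxcl2 was at most 1.81% of them without and 9.18 to 25.1% with AMG, and Cxcl1 at most 7.62% and 15.0 to 25.2%, whereas the share of Cxcl3 overlapped between groups.

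**Figure D3:**
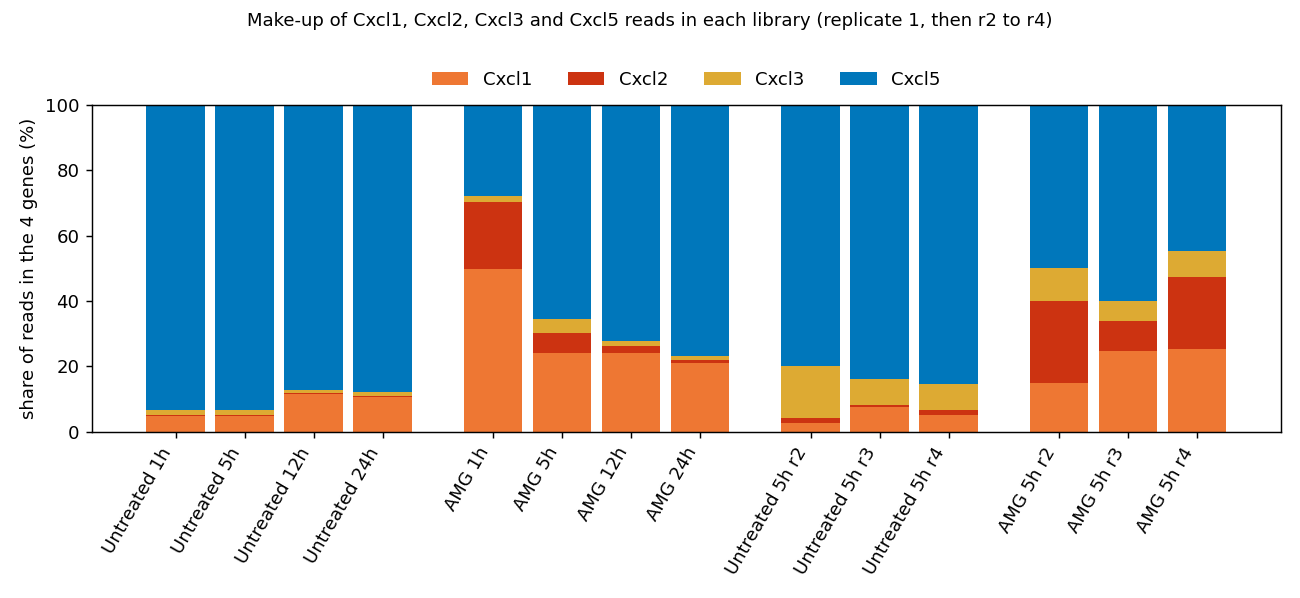
Share in percent of each inducible chemokine among the reads of all 4, by library, with replicate 1 on the left (1 to 24 h) and replicates 2 to 4 at 5 h (r2 to r4) on the right. Cxcl5 (blue) fills 79.7% or more of every Untreated bar, and is smallest, at 27.8%, in the AMG-treated library at 1 h.

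Replicate 1 was followed from 1 to 24 h to see when each chemokine moved. It has 1 library per group and time, so no difference in it has a replicate check, and the 95% intervals given for its ratios are exact binomial ones that cover counting error only. The libraries at 1 and 5 h did not group by treatment or time over all genes: by a chi-square of read counts per gene, smaller meaning more alike, Untreated 5 h was closest to AMG-treated 1 h (88.9, against 264 to Untreated 1 h), and AMG-treated 5 h to Untreated 1 h (106, against 211 to Untreated 5 h). The part of this in the 1 and 5 h ratios was not tested, while at 12 and 24 h the libraries of a treatment were closest to each other (40.5 for Untreated, 47.4 for AMG-treated). A log2 ratio above 1 was reached by 5, 6, 5 and 5 members at 1, 5, 12 and 24 h, beside 11.3, 13.3, 5.93 and 6.05% of 13498 genes. A ratio below -1 was reached by 0, 1, 2 and 2 members, beside 10.7, 12.6, 6.9 and 8.05%. The 4 inducible members and Cxcl16 were above 1 at all 4 times.

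Cxcl1 was highest at the first time sampled. Its AMG-treated libraries had 43677, 7549, 14002 and 16852 normalised counts at 1, 5, 12 and 24 h, against 286.5, 272.1, 452.3 and 675.4 in the Untreated ones. The treated level at 1 h was 5.79 times that at 5 h, and the values at 12 and 24 h were higher than at 5 h in both groups. The treated level was 152-fold the untreated one at 1 h (95% interval 137 to 171) and 25.0-fold at 24 h (23.3 to 26.7).

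Cxcl2 was highest at 1 h too, and lower at each later time. It had 18284, 1887, 1280 and 946.9 normalised counts with AMG at the 4 times, against 14.9, 14.8, 7.32 and 13.8 without. The treated level at 1 h was 19.3 times that at 24 h, while the untreated level stayed near the floor throughout, on 9 to 18 reads. The ratio at 1 h, 1224-fold, had a wide 95% interval of 764 to 2101, and that at 24 h was 68.7-fold (43.3 to 116).

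Cxcl3 kept a nearly constant ratio. Its levels were 1555, 1368, 741.4 and 944.2 normalised counts with AMG and 101.1, 86.9, 46.8 and 78.9 without, and both groups were lowest at 12 h. The log2 ratios were 3.93, 3.96, 3.96 and 3.56 at 1, 5, 12 and 24 h.

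Cxcl5 had the opposite course to Cxcl2, with its highest treated level last. It had 24463, 20487, 41967 and 61755 normalised counts with AMG and 5524, 5199, 3411 and 5510 without. The treated level at 24 h was 2.52 times that at 1 h while the untreated levels were alike, and the ratio went from 4.43-fold (4.30 to 4.56) at 1 h to 11.2-fold (10.9 to 11.5) at 24 h. Cxcl1 led the inducible reads at 1 h with 49.6%, and Cxcl5 at 24 h with 76.7%.

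Cxcl12 and Cxcl14 were further below the untreated level at each time from 5 h on. Cxcl12 had 1389, 538.4, 343.1 and 304.2 normalised counts with AMG and 1084, 1288, 927.9 and 1877 without, giving log2 ratios of 0.36, -1.26, -1.43 and -2.62. At 24 h the untreated level was 6.17-fold the treated one (95% interval 5.50 to 6.93). Cxcl14 had 19899, 14207, 3508 and 1209 normalised counts with AMG and 15059, 27794, 17083 and 12403 without, and log2 ratios of 0.40, -0.97, -2.28 and -3.36. Its untreated level was 10.3-fold the treated one at 24 h (9.70 to 10.9). The positive value of Cxcl14 at 1 h turned to -0.16 once a trend on exon length within each library was removed, so its direction there is not settled, and its value at 5 h shrank to -0.39. As deposited, both genes were above the untreated level at 1 h and below it at the 3 later times. At the 4 times the fibroblast marker sum went from 398000 to 295100, 306100 to 313700, 357900 to 256500 and 365200 to 217900 with AMG. The leukocyte sum went from 1521 to 2189, 2044 to 1064, 1237 to 1187 and 1169 to 1083. In it Lyz2 went from 990 to 962, 1541 to 315, 899 to 336 and 871 to 266, while Cd14 was higher at every time. The part of these differences in the course of Cxcl12 and Cxcl14 was not tested.

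Cxcl16 and Cx3cl1 showed no such trend. Cxcl16 had 862.5, 752.0, 517.5 and 815.5 normalised counts with AMG and 192.5, 283.6, 115.6 and 135.5 without, with log2 ratios of 2.16, 1.40, 2.15 and 2.58. Cx3cl1 had 1283, 1733, 889.1 and 1304 with AMG and 1276, 604.8, 678.4 and 877.6 without, and its log2 ratio went past 1 at 5 h alone (0.01, 1.52, 0.39 and 0.57). At 1 h the 2 libraries did not differ in Cx3cl1 beyond counting error (1.01-fold, 95% interval 0.92 to 1.10).

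**Figure D4:**
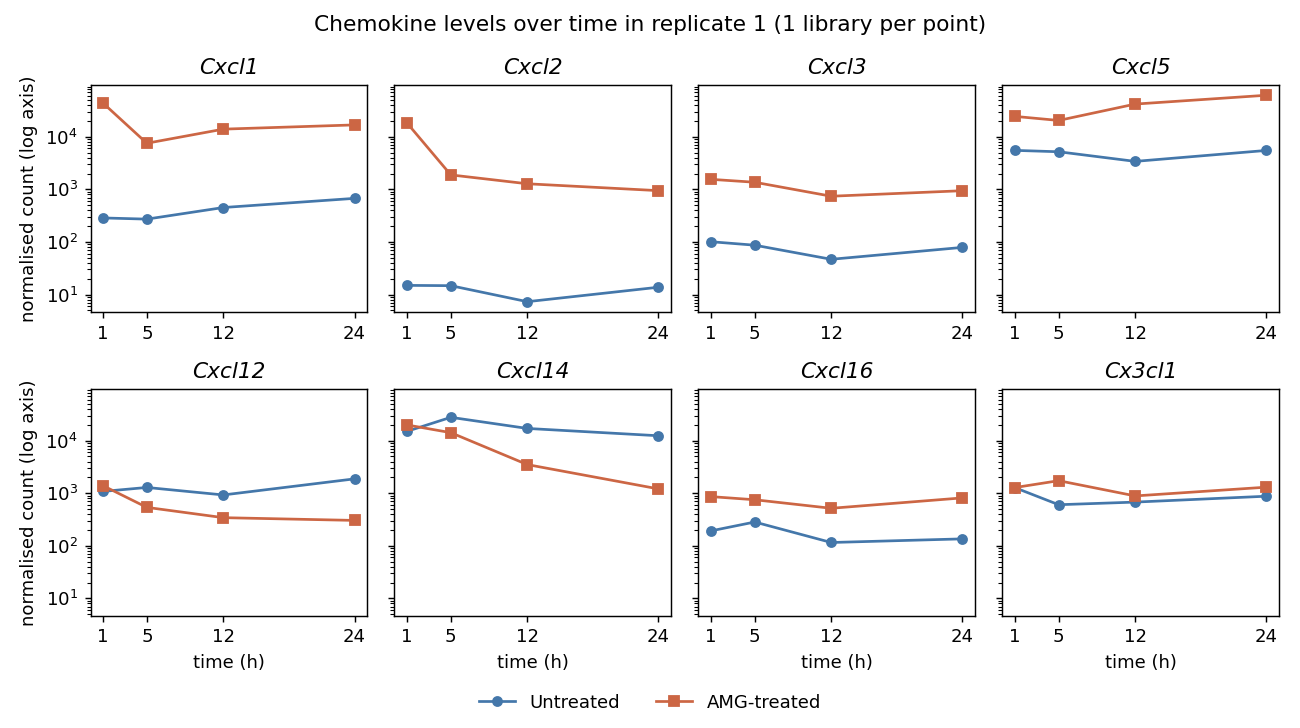
Normalised counts on a log axis against time for Untreated (blue circles) and AMG-treated (orange squares) libraries of replicate 1, 1 library per point. Treated Cxcl1 and Cxcl2 are highest at 1 h (43677 and 18284), treated Cxcl5 at 24 h (61755), and treated Cxcl12 and Cxcl14 drop below the untreated line from 5 h on.

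The genes whose log2 levels followed each member most closely over the 8 libraries of replicate 1 were taken among 11389 genes with a mean of at least 50, as a description. These libraries share a replicate number and the treatment contrast, which any responsive gene follows. For Cxcl1 they were Ier3 (Pearson r = 0.986), the monocyte attractant Ccl2 (0.982) and Nfe2l2 (0.980). For Cxcl2 they were the cytokines Il6 (0.993) and Lif (0.990) and the phospholipid scramblase Plscr1 (0.986), and for Cxcl3 Nod2 (0.996), Olr1 (0.988) and Gm16685 (0.987). Cxcl5 ran with Gsap (0.977), the prostaglandin E synthase Ptges (0.967) and Lrrc8d (0.963), and Cxcl16 with Gch1 (0.981), Sod2 (0.977) and Pabpc1 (0.971). Cxcl12 ran with the lysosomal protease Lgmn (0.983), Gca (0.978) and Ctso (0.976), Cxcl14 with Prss23 (0.990), Pcp4l1 (0.986) and Vnn1 (0.986), and Cx3cl1 with Adarb1 (0.978), Dcbld2 (0.954) and Ttyh2 (0.949).

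The genes that act with these chemokines were read at 5 h in replicates 2 to 4 from 6 lists of 59 genes, of which 43 had a mean of at least 10 and were tested. By the same limma rule 11 were called higher and 0 lower, beside 0.855 and 0.244% of all genes. The count called higher was 0 without AMG-treated replicate 2, 1 without AMG-treated replicate 4, and 2 without Untreated replicate 2, 3 or 4. Over all genes these fits called 1, 6, and 10, 41 and 9 higher. Without AMG-treated replicate 3 the count was 14, beside 447 over all genes. NF-kB components made up most of the 11, with 9 of 14 called higher and a list median of 1.44. They included the inhibitor Nfkbia, at 314.5 ± 7.47 normalised counts without and 4994 ± 2692 with AMG (SD, n = 3), with a log2 fold change of 3.79 (limma adjusted p = 0.0196). The nuclear inhibitor-like cofactor Nfkbiz rose by 3.03 on the log2 scale (limma adjusted p = 0.00567) and the deubiquitinase Tnfaip3, which ends the signal, by 2.89 (limma adjusted p = 0.0272). The remaining 6 were the subunits Relb (2.09), Nfkb1 (1.82) and Nfkb2 (1.50), and Bcl3 (2.22), Nfkbie (1.39) and Nfkbib (1.37). The kinase subunits Chuk, Ikbkb and Ikbkg, with log2 fold changes of -0.10, 0.21 and 0.00, were not called, nor were Rela (0.67) and Rel (-1.06).

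Of 9 factors of mRNA decay or stability, which set how long chemokine transcripts last, Zc3h12a (Regnase-1) was called, with a log2 fold change of 3.59 (limma adjusted p = 0.00567). Zfp36, which binds AU-rich elements, was at 740 ± 103 and 819 ± 60.7 normalised counts. In replicate 1 its log2 ratios at 1, 5, 12 and 24 h were 1.905, 0.479, 0.024 and -0.043, from 1 library per group and time. Of 5 tested proteases that cut or shed members, Mmp9 was called (19.1 ± 9.40 to 1214 ± 957, log2 fold change 5.47, limma adjusted p = 0.0414). Adam10 and Adam17, the main sheddases of Cxcl16 and Cx3cl1, had log2 fold changes of -0.56 (limma adjusted p = 0.117) and -0.26 (limma adjusted p = 0.438). None of the 10 upstream receptors and adaptors was called. With the replicate block Mmp12, Tlr2 and Cxcl10 were called in addition.

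The receptors of the inducible members were near the limit of detection in these cultures. Cxcr2 had 6.58 ± 3.82 normalised counts without and 6.83 ± 7.45 with AMG (SD, n = 3), under the mean of 10 needed for testing, and Cxcr1 had no read in any of the 6 libraries. Cxcr4 had at most 3 reads in any of these 6 libraries of replicates 2 to 4. In replicate 1 its level lay above the floor of 3 reads in some libraries, and was highest in the Untreated one at 5 h. In replicates 2 to 4, Ackr3, the other receptor of Cxcl12, was present at 255 ± 44.7 and 268 ± 48.3 normalised counts (log2 fold change 0.07, limma adjusted p = 0.883). Cxcr6, the receptor of Cxcl16, was there at 116 ± 72.2 and 99.6 ± 32.6 (0.01, limma adjusted p = 0.993). In replicate 1 at 5 h Cxcr6 was at 2282 without and 979 with AMG. Its log2 ratios at 1, 5, 12 and 24 h were 0.30, -1.22, -0.96 and -0.69, from 1 library per group and time.

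Of the 3 further chemokines of the chromosome 5 cluster, 2 were tested and neither was called. Ppbp, next to Cxcl5 on the chromosome and itself a precursor of a Cxcr2 ligand, was at 9140 ± 5123 normalised counts without and 9818 ± 4830 with AMG (log2 fold change 0.13, SE 0.51, limma adjusted p = 0.903). Cxcl15 had a log2 fold change of -0.47 (SE 0.94, limma adjusted p = 0.797), and Pf4 was too low to test, at 6.17 ± 6.38 and 10.2 ± 13.7 normalised counts. Cxcl10, a chemokine of the CXC class that draws T cells, went from 9.57 ± 3.90 to 153 ± 129, with a log2 fold change of 3.32 (limma adjusted p = 0.110, and 0.00145 with the replicate block).

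**Figure D5:**
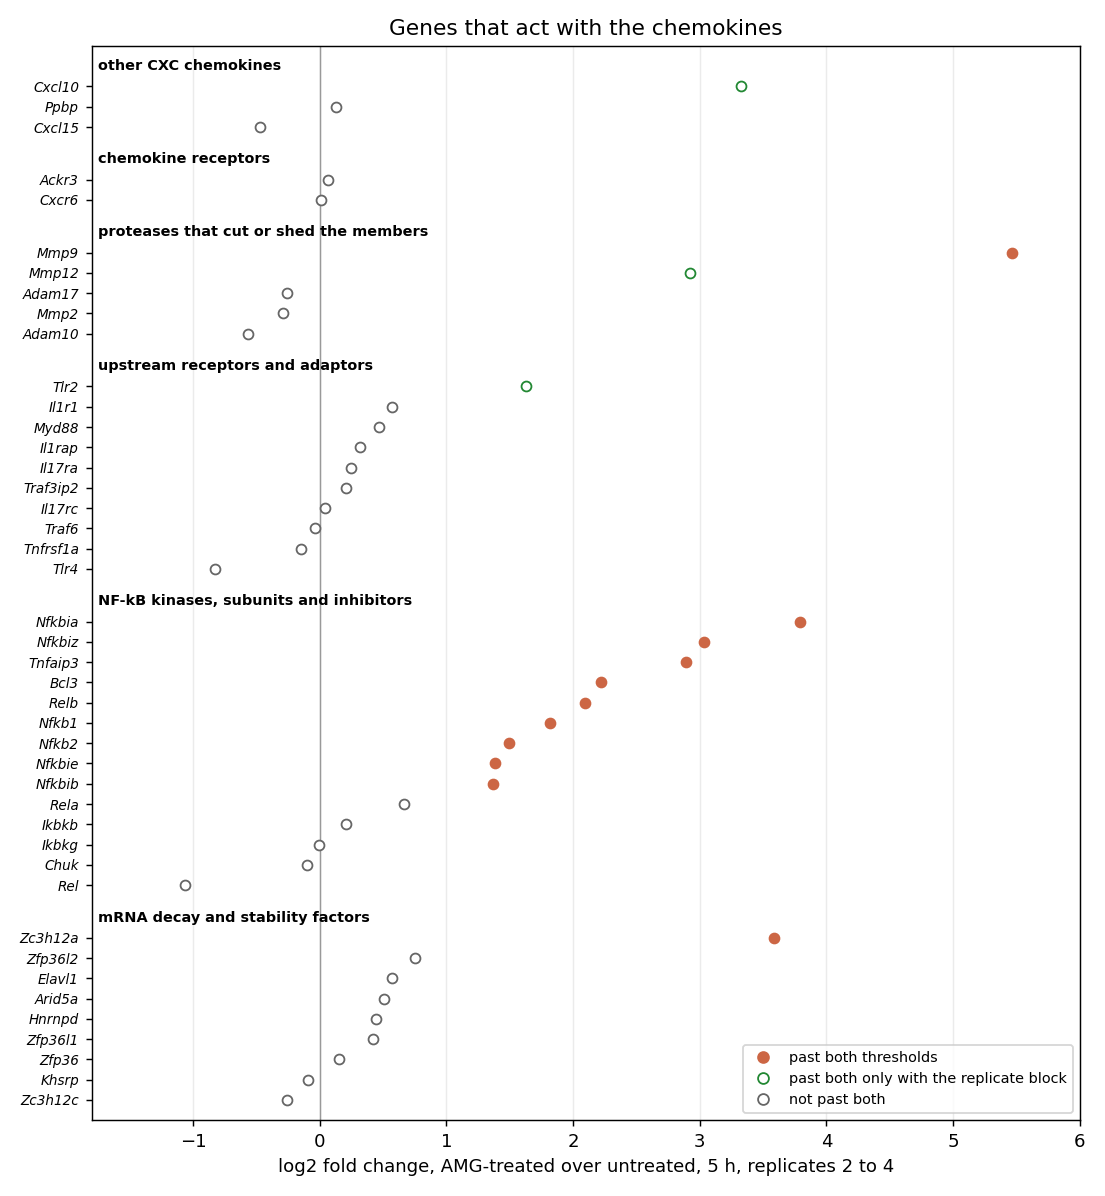
Log2 fold change at 5 h in replicates 2 to 4 for the 43 tested genes of 6 lists, AMG-treated over Untreated; filled points passed both thresholds in limma without the block, green rings passed with the block alone and grey rings did not pass. The 9 filled NF-kB genes run from 1.37 (Nfkbib) to 3.79 (Nfkbia).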

How the data were processed

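The authors sequenced stranded poly(A) libraries as single 50-base reads, aligned them to mm10 with TopHat2 2.0.13, kept uniquely aligned reads, counted them per gene with HTSeq 0.5.3p3 and deposited counts divided by DESeq size factors as a normalised signal, 1 table for replicate 1 and 1 for replicates 2 to 4. The annotation and strand setting are not given in the sources used here. Unique alignment drops reads that paralogues share. Whole reads came back for 100% of values (tolerance 0.1) and served edgeR 4.0.16 and DESeq2 1.42.0 as alternatives.

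limma 3.58.1 with a variance trend was fitted to log2(normalised count + 1) for 13096 genes with a mean of at least 10, which all 8 members passed, and p-values were adjusted over all of them. Same-numbered libraries of replicates 2 to 4 deviated together (r = 0.65, 0.76 and 0.70, against -0.59 to 0.12 for different numbers), so these numbers were taken to pair the libraries. Genes named are the members, the called genes of the lists, genes given for contrast, and the 3 nearest patterns per member. The members and lists were chosen with earlier results of these data known. Coordinates and exon lengths came from GENCODE M21. Other numbers printed are counts, means, SDs and ratios of the deposited values, and intervals are 95%.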

Additional observations from a re-analysis of the deposited data

How the results depend on the processing

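At 5 h the direction of Cxcl1, Cxcl2, Cxcl3, Cxcl5, Cxcl16 and Cx3cl1 held under all 19 alternatives. With 1 library left out Cxcl12 ranged from -1.38 to 0.089 on the log2 scale, turning without Untreated replicate 3, and Cxcl14 from -1.73 to 1.13, turning without Untreated replicate 2 (1.13) or AMG-treated replicate 3 (1.10). Cxcl14 also turned, to 0.034, in edgeR and, to 0.029, in DESeq2. Leaving out 1 library gave 0 to 4 called inducible members (4 with all), 0 to 2 of the other members (1 with all), 0 to 14 called list genes higher (11) and 0 to 1 lower (0), and over all genes 1 to 447 higher (112) and 0 to 511 lower (32), the lower ends with AMG-treated replicate 2 left out and the upper ends with AMG-treated replicate 3 left out. At those lower ends limma had 1893 genes at an unadjusted p under 0.05. The pairing of libraries as a replicate block raised the called other members to 2 and all genes to 530 higher and 560 lower, and changed no other member's call; 2 other members were also called by DESeq2 (337 higher, 230 lower in all), by edgeR with the block (560 and 542) and by the length correction with the block (512 and 490). Without the variance trend 56 genes were called higher, 3 of them in the lists. In replicate 1 at 5 h, upper quartile rescaling put 2 members below -1 in place of 1, as Cxcl14 reached -1.05. After the length correction Cxcl5 had log2 ratios of 1.60 at 1 h and 2.54 at 5 h in replicate 1, against 2.15 and 1.98. The cause of these shifts was not tested. Depth limits Cxcl2 without treatment, which rested on 4 to 24 reads.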

Other observations

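In replicate 1, Cxcl10 was not steady over time, with log2 ratios of 1.94, 0.53, 5.33 and -0.74 at 1, 5, 12 and 24 h from 1 library per group and time. Mmp9 had log2 ratios of 0.92, 3.76, 4.79 and 4.35 and Mmp12 0.76, 2.31, 3.83 and 4.77, highest after the first hour, whereas Tnfaip3 had 5.42, 4.12, 1.14 and 1.69, highest at 1 h. Zc3h12a, at 3.08, 3.72, 3.20 and 3.14, and Nfkbiz, at 3.29, 3.26, 3.47 and 3.03, kept nearly the same ratio at all 4 times. Cd14 was higher with AMG at every time, from 210 to 1014 normalised counts at 1 h and from 88.8 to 713 at 24 h.

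The neutrophil gene S100a8 had 11.4, 41.0, 3.66 and 1.53 normalised counts in the Untreated and 12.2, 29.4, 54.3 and 162 in the AMG-treated libraries at 1, 5, 12 and 24 h, and Ly6g 0.88, 9.83, 2.20 and 0.77 against 0, 6.19, 4.76 and 24.3. In replicate 1 both were lower with AMG at 5 h and higher at 12 and 24 h, while Csf3r was at 0 in all 8 libraries. At 5 h in replicates 2, 3 and 4, by contrast, both were higher with AMG. S100a8 went from 3.30 to 3.82, 15.3 to 36.1 and 1.62 to 21.5 normalised counts there. Ly6g went from 0 to 1.27, 5.57 to 13.1 and 2.16 to 4.52, and several of these values lie near the floor. The values at 1, 12 and 24 h have no replicate.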
